A study of Rattus norvegicus with 24 samples.

Results

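The lung transcriptome of rats that inhaled hexanal at 600 ppm, the lowest of the tested doses, was compared with that of rats that breathed filtered clean air. The members were chosen by the sample labels alone: 6 rats of the 600 ppm group and 6 control rats, 12 of the 24 samples in the series. All were Fischer-344 rats aged 7 to 8 weeks, with 3 males and 3 females in each group, exposed nose-only for 4 h a day on 5 days a week. The labels give 5 weeks of exposure and write the doses in mg/m3, whereas the study's methods give 4 weeks and ppm, as do the sample titles for the dose. The other 12 samples came from rats at 1000 and 1500 ppm, 6 in each group. Each array held RNA from the lung of 1 rat, so the replicates are animals.

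Hexanal is a volatile straight-chain aldehyde, released by microbes and by oxidising fats. Reactive aldehydes bind to thiols and amines of proteins. Cells meet misfolded or modified proteins with heat shock proteins, chaperones whose genes are switched on by the transcription factor HSF1, and they clear aldehydes with aldehyde dehydrogenases, aldehyde reductases and glutathione S-transferases. Electrophiles can also release the transcription factor Nrf2, which drives genes of antioxidant defence. In the lung these systems work in the airway epithelium, the alveolar epithelium and the resident immune cells.

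Expression was read from 1-colour Agilent rat arrays as the log2 of the processed signal minus the log2 of the array's 75th percentile, so that a level of 0 is as bright as that percentile. A total of 21261 genes or unnamed probes were tested, 12500 of them with a symbol. The arrays of the 600 ppm rats had between 70.71% and 79.78% of probes well above background (median 75.46%), and those of the control rats between 77.87% and 81.06% (median 78.32%). Rat 7 of the 600 ppm group had the lowest share. Markers of lung were bright in every array: Sftpc, the surfactant protein C of alveolar type II cells, had levels of 7.47 to 8.04 in the controls and 7.56 to 8.00 at 600 ppm. The controls lay on 2 slides, which also held rat 6 (male) and rat 26 (female) of the 600 ppm group, while rats 7, 8, 27 and 28 lay on slides shared with the 1000 ppm rats. Each slide held 1 sex. As controls lay on no other slides, the difference estimated with the slide as a fixed block rests on rats 6 and 26 alone, each against the controls of its slide. Below, "the slide as a block" means this fixed block.

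Few genes separated the lung at 600 ppm from the clean air lung, and none did so after adjustment. No gene passed a Benjamini-Hochberg adjusted p of 0.05 in limma (0%), and the smallest adjusted p was 0.135, for the beta tubulin Tubb4b. Every other gene with an unadjusted p under 0.05 had an adjusted p of 0.996, also where that p is not repeated below. At an unadjusted p under 0.05 there were 924 genes (4.35%), of which 412 were higher (1.94%) and 512 lower (2.41%), where the threshold itself allows 5%. The sexes were balanced between the groups but not in the fit, and with sex as a covariate the count was 1463 (6.88%), with still 0 genes at an adjusted p under 0.05. With a fold change of at least 1.5 added, which is the rule the study's methods give for mRNA, 129 genes or unnamed probes were called (0.607%): 36 were higher (0.169%) and 93 lower (0.437%). Below, "called" means past both thresholds without adjustment.

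Of the called genes and probes, 69 had a symbol and 60 did not. The lower calls came mostly from dim probes. Among the 5316 dimmest genes by mean level, 20 were called higher and 79 lower, and among the 5315 brightest 2 higher and 1 lower. Among the 93 called lower, 66 were well above background in fewer 600 ppm than control arrays, the direction in which the share of detected probes also differed between the groups; its part in these calls was not tested. Of the 129, 21 of the higher and 27 of the lower calls were well above background in all 12 arrays; where that was instead the filter before the fit, 22 were called higher and 28 lower. The split also moved with the scaling: 52 higher and 72 lower after quantile normalization, and 76 higher and 64 lower on the unscaled deposited table, whose median over all genes lay 0.07 above 0 on the log2 scale. On the main scale that median was -0.00029, and 49.9% of genes were higher. Bright genes as a whole leaned up by a little: among the 5315 brightest, with mean levels from 0.81, 60.3% had a higher mean (median 0.02).

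**Figure D1:**
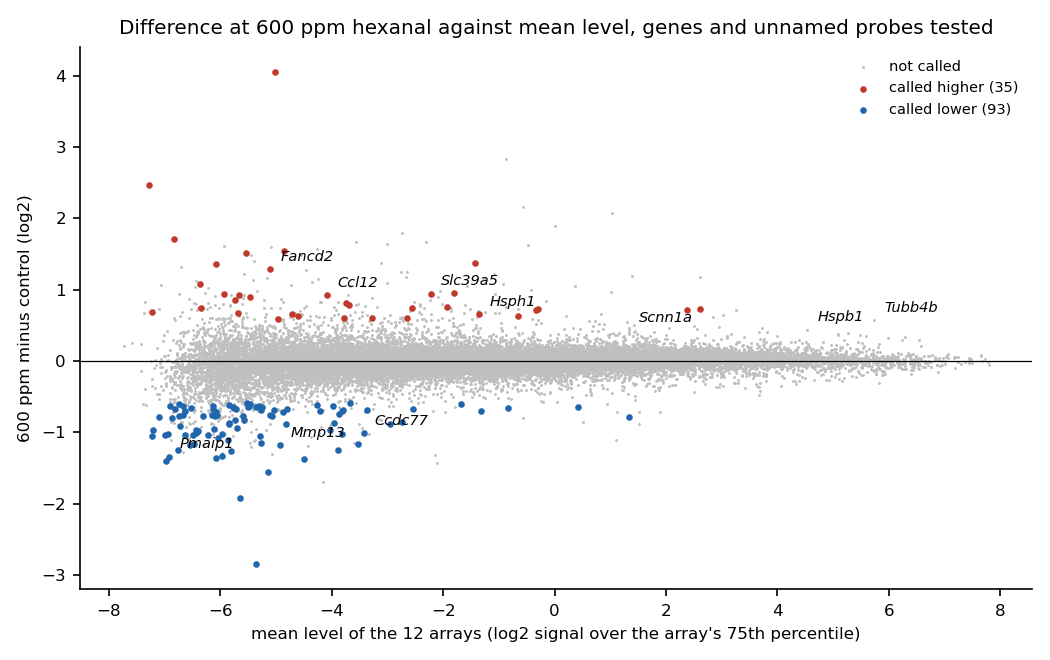
Log2 difference (600 ppm minus control, 6 rats each) against the mean level of the 12 arrays, in log2 over the array's 75th percentile; each point is a gene or unnamed probe, red where called higher (35 drawn) and blue where called lower (93). The called points lie mostly at low levels on the left, whereas Tubb4b and Hspb1 lie at high levels close to the body of points.

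Tubb4b, a beta tubulin of the microtubules and abundant in ciliated cells, had the smallest p of all genes tested. Its level ran from 5.20 to 5.70 (median 5.39) in the controls and from 5.82 to 6.41 (median 5.93) at 600 ppm. Every exposed rat was above every control, with rat 6 the highest. The mean difference was 0.57 on the log2 scale (SE 0.10, limma p = 6.343e-06; exact two-sided permutation p = 0.00216, the smallest that 6 rats against 6 can give), under the 1.5-fold threshold. It was 0.84 in the males and 0.31 in the females; the difference between the sexes did not pass after adjustment (limma adjusted p = 0.943). With the slide as a block it was 0.67, and against the same controls it was 0.99 at 1000 ppm and 0.94 at 1500 ppm.

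The other tubulin genes were mostly on the same side. Of 16 that passed the filter, 14 had a higher mean, with a median difference of 0.11 beside -0.00029 over all genes. Their median control level was 2.195, and of the 5315 brightest genes 60.3% had a higher mean. Of the 16, 4 had an unadjusted p under 0.05, all higher, beside 1.94% of all genes. Besides Tubb4b these were Tuba1a, an alpha tubulin (0.24, SE 0.09), Tubb5, a widely expressed beta tubulin (0.18, SE 0.07), and Tubg1, the gamma tubulin from which microtubules are nucleated (0.14, SE 0.05). For Tuba1a the control levels ran from 5.36 to 6.00 (median 5.72) and the 600 ppm levels from 5.71 to 6.17 (median 5.94), so the groups overlapped. Tubb5 ran from 2.92 to 3.02 (median 2.99) in the controls and from 2.96 to 3.37 (median 3.17) at 600 ppm, again with an overlap. The ciliated cell markers, by comparison, were higher for 8 of 10 members with a median of 0.13 and none had an unadjusted p under 0.05. In bulk lung, more cells of a type and more RNA per cell cannot be told apart, here or for any list below.

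Heat shock genes leaned to the higher side. Of the 21 listed, 17 were on the array and passed the filter, 16 had a higher mean, and 5 had an unadjusted p under 0.05, all higher. Over all genes 1.94% were higher at that threshold, and 60.3% of the brightest genes had a higher mean; the median control level of these 17 was 1.94. Their median difference was 0.18 on the log2 scale, and it stayed between 0.15 and 0.28 across the 28 settings tried. The promoters of 3 of those 5 genes were picked for display because they hold paired units of GAA and its complement TTC, the kind of letters that HSF1 is known to recognise. These are the 250 bases before the start of each gene, read 5′ to 3′ on the gene's strand from RefSeq on GRCr8, with the pair motifs GAANNTTC and TTCNNGAA in capitals. Both motifs read the same on either strand, and overlapping pairs form the triplets GAANNTTCNNGAA or TTCNNGAANNTTC.
Hsph1 (chr12:10427118-10427367, plus strand): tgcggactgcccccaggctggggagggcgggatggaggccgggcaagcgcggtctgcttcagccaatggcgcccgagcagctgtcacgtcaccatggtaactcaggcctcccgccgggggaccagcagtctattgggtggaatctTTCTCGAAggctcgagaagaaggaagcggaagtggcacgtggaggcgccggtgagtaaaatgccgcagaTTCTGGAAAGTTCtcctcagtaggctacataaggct
Hspb1 (chr12:26432302-26432551, minus strand): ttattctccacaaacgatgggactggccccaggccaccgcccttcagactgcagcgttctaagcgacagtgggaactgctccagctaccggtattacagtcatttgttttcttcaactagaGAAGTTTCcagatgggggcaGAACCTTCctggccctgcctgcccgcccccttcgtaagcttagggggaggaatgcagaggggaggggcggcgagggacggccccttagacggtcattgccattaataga
Hspe1 (chr9:64084077-64084326, plus strand): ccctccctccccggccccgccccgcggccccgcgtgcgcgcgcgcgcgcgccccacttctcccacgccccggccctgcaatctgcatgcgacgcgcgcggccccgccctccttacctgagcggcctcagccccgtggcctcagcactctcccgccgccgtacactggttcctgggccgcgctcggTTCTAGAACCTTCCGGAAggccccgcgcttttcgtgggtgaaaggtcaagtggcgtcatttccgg
Hsph1 has 3 pairs and 1 triplet, Hspb1 has 2 pairs and 0 triplets, and Hspe1 has 3 pairs and 2 triplets. Of the other two, Hsp90ab1 has 0 pairs and 0 triplets, and Cryab was not matched. Of the 13 heat shock genes with a promoter in the table, 10 held a pair and 4 a triplet, and over all 33469 promoters the shares were 13.5% and 0.663%. The windows of Hspe1 and Hspd1, another of the 13, overlap on opposite strands and share matches. A match of letters is a description and no measure of binding.

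Hspb1 is the small heat shock protein that holds unfolding proteins in solution. Its level ran from 3.95 to 4.49 (median 4.39) in the controls and from 4.59 to 5.09 (median 4.69) at 600 ppm. The groups did not overlap, as in 21 genes or probes (0.0988%) that were higher throughout and 38 (0.179%) that were lower throughout. The difference was 0.44 (SE 0.11, limma p = 0.000648, exact permutation p = 0.00216), at 0.38 in males and 0.50 in females. With the slide as a block it was 0.46.

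Hsph1, the nucleotide exchange factor of Hsp70, was the called member of the group. Controls ran from -2.07 to -1.23 (median -1.72) and exposed rats from -1.36 to -0.72 (median -1.01). Only female rat 27 at 600 ppm lay inside the control range. The difference was 0.65 (SE 0.20, limma p = 0.00399, exact permutation p = 0.00433), or 0.61 with the slide as a block.

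Smaller differences came from Hspe1, the co-chaperonin of the mitochondrial chaperonin, with 0.24 (SE 0.09), Hsp90ab1, a cytosolic Hsp90, with 0.26 (SE 0.11), and Cryab, a small chaperone also known from the lens, with 0.27 (SE 0.12). Hspa8, the constitutive Hsp70, differed by 0.34 (SE 0.16), Dnaja1, an Hsp70 co-chaperone, by 0.37 (SE 0.30), and the factor Hsf1 itself by 0.06 (SE 0.08). Hspa2, an Hsp70 prominent in testis, was the 1 member with a lower mean, by -0.20. Taking the median of the members in each rat, the group ran from -0.16 to 0.19 in the controls and from 0.02 to 0.36 at 600 ppm, relative to the control mean. Rats 27, 26 and 7 were the lowest of the exposed rats and lay within the control range. ER stress genes, which answer misfolding in the secretory pathway, were higher for 16 of 22 with a median of 0.15. Among the 22, 1 had an unadjusted p under 0.05, the chaperone cofactor Sdf2l1 (0.33, SE 0.15), beside 1.94% of all genes higher at that threshold.

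**Figure D2:**
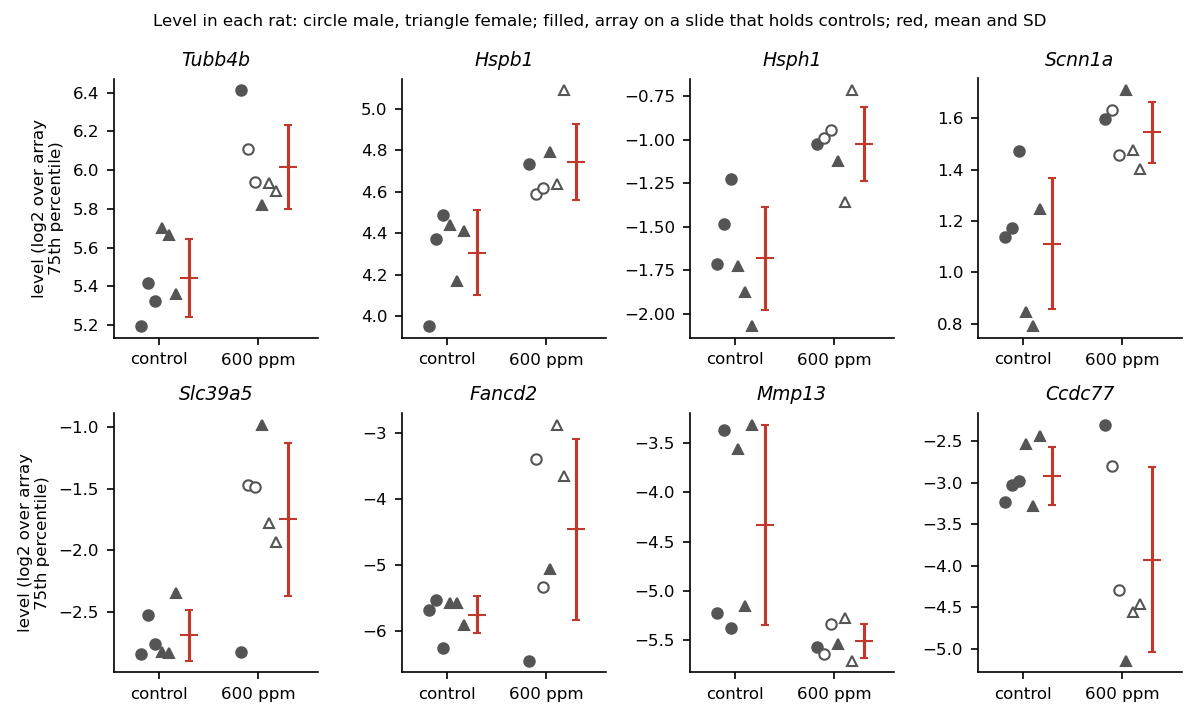
Level of 8 genes in each of the 12 rats (log2 over the array's 75th percentile); circles are males, triangles females, filled symbols lie on a slide that holds controls, and red marks give the mean and SD. Tubb4b and Hspb1 do not overlap between the groups, Slc39a5 has rat 6 among the controls at -2.83, and the 600 ppm values of Fancd2 and Ccdc77 are spread widely.

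Several genes outside the chaperones had small p-values with differences below 1.5-fold. Scnn1a, the alpha subunit of the epithelial sodium channel that clears alveolar fluid, ran from 0.79 to 1.47 (median 1.16) in the controls and from 1.40 to 1.71 (median 1.54) at 600 ppm. A single control, male 3, lay inside the exposed range. The difference was 0.43 (SE 0.14, limma p = 0.00536, exact permutation p = 0.00649), and it was 0.24 at 1000 ppm and -0.15 at 1500 ppm. Scnn1a was picked after its values were seen. Within the list of epithelial ion transport, 12 of 19 members were higher, with a median of 0.07, and the potassium channel Kcnq1 was at 0.20 (SE 0.07).

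Glmn, glomulin, ran from -3.33 to -2.96 in the controls (median -3.12) and from -3.54 to -3.39 at 600 ppm (median -3.43), without overlap. Its difference was -0.30 (SE 0.07, exact permutation p = 0.00216). Ccar2, a nuclear regulator of the deacetylase SIRT1, was also lower in every exposed rat, with -0.28 (SE 0.07, exact permutation p = 0.00216), a control range of -1.13 to -0.86 (median -0.97) and an exposed range of -1.35 to -1.13 (median -1.25). Plekhb2, a membrane protein of recycling endosomes, was higher by 0.27 (SE 0.07), with controls at 3.67 to 4.11 (median 3.91) and exposed rats at 4.05 to 4.35 (median 4.17), a small overlap. The remaining genes among the 10 smallest p-values were Endou, an endoribonuclease (-0.56), Syngr3, a synaptic vesicle protein (0.24), Rgma, a guidance molecule and co-receptor of bone morphogenetic proteins (0.23), and Prkd2, protein kinase D2 (-0.38).

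The largest higher calls were spread over unrelated functions. Fancd2, the DNA crosslink repair protein of the Fanconi anaemia pathway, ran from -6.24 to -5.52 in the controls (median -5.62) and from -6.44 to -2.88 at 600 ppm (median -4.35). Rat 6 was below every control and not well above background, whereas rats 7, 27 and 28 lay between -3.65 and -2.88. The difference was 1.29 (SE 0.46, limma p = 0.0103, exact permutation p = 0.0628), and with the slide as a block, which rests on rats 6 and 26, it was 0.0025. The rest of the Fanconi and homologous recombination list did not share its direction: 3 of 12 members were higher and the median was -0.12.

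Slc39a5, a zinc importer of epithelial cells, ran from -2.84 to -2.34 in the controls (median -2.79) and from -2.83 to -0.98 at 600 ppm (median -1.63). Rat 6 lay among the controls and the other 5 exposed rats were above all of them. The difference was 0.94 (SE 0.30, limma p = 0.00461, exact permutation p = 0.0108), and values against the same controls were 0.71 at 1000 ppm and 0.66 at 1500 ppm. Other zinc importers differed in both directions: Slc39a8, which also carries manganese, was higher by 0.46 (SE 0.20) and Slc39a14, known for manganese and non-transferrin iron, was lower by -0.44 (SE 0.13). A second Slc39a14 probe differed by -0.10. Over metallothioneins and zinc transporters 7 of 15 were higher, with a median of -0.01 that was 0.06 on the unscaled table.

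Ccl12, a monocyte-attracting chemokine, ran from -5.85 to -3.41 in the controls (median -4.52) and from -4.19 to -3.19 at 600 ppm (median -3.64). The 3 control males were below every exposed rat, and the control females overlapped with them. Its difference was 0.93 (SE 0.31, limma p = 0.00669, exact permutation p = 0.039), of which the males gave 1.55 and the females 0.31, and it was 1.18 at 1000 ppm and 1.56 at 1500 ppm. Under normexp the 600 ppm difference was 0.46. Calca, the gene of calcitonin and of the neuropeptide CGRP, found in the lung in neuroendocrine cells, was higher by 0.76 (SE 0.29), with controls at -2.72 to -1.60 (median -2.42) and exposed rats at -1.89 to -0.84 (median -1.74). The second Calca probe differed by 1.04, and the first by 0.43 with the slide as a block.

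Steap1, a metalloreductase, was higher by 0.90 (SE 0.34), with 5 of 6 arrays well above background in each group, and by 0.02 under normexp background correction. Adam7, a membrane protein known from the epididymis, was higher by 0.95 (SE 0.36), and the lipase Lipn by 0.85 (SE 0.38). Nrap, an actin-binding protein of striated muscle, differed by 0.73 (SE 0.29), the mitochondrial creatine kinase Ckmt1 by 0.72 (SE 0.29), and the small heat shock family member Hspb9 by 0.67 (SE 0.20). Hspb9 was at 0.42 without 600 ppm rat 6 and at 0.14 under normexp, both below the 1.5-fold threshold. Lipn turned to -0.17 with the slide as a block, so its direction depends on which rats are compared.

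The largest lower calls included Mmp13, the collagenase-3 of matrix turnover. It ran from -5.38 to -3.31 in the controls (median -4.35) and from -5.71 to -5.27 at 600 ppm (median -5.55). Controls 2, 21 and 23 lay between -3.55 and -3.31, and the other 3 lay close to the exposed rats, with an overlap. The difference was -1.18 (SE 0.53, limma p = 0.0349, exact permutation p = 0.00649), with values of -0.23 at 1000 ppm and -0.80 at 1500 ppm. Timp1, an inhibitor of these proteases, was higher by 0.27 (SE 0.10). The metalloproteinase list as a whole had 10 of 15 members higher, with a median of 0.12 that turned to -0.09 under normexp background correction.

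Ccdc77, a coiled-coil protein of the centrosome, ran from -3.29 to -2.44 in the controls (median -3.01) and from -5.14 to -2.30 at 600 ppm (median -4.37). The difference of -1.01 (limma p = 0.0392, exact permutation p = 0.0584) came from the females: -1.97 in females against -0.05 in males, a difference between the sexes that did not pass (limma adjusted p = 0.947). Rasd1, a Ras-like protein known to answer dexamethasone, was lower by -0.70 (SE 0.23), with controls at -1.88 to -0.40 (median -0.85) and exposed rats at -1.98 to -1.19 (median -1.73). It was 0.19 at 1000 ppm and -0.49 at 1500 ppm. Ddhd2, a lipase linked to brain triglycerides, was lower by -0.69 (SE 0.21), and Cilp2, a matrix protein of cartilage, by -0.71 (SE 0.27), or -0.40 and below 1.5-fold without control 1. The remaining lower calls among the 12 largest lay between -0.86 and -0.69: the T cell adaptor Lax1, the cone phosphodiesterase subunit Pde6h, the chemokine-like Cmtm2a, the neurite outgrowth gene Nrn1, the endothelial gene Apold1, Lrrc17 and Ccdc152.

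Some genes dropped out of the detected range. Of the 21261 tested, 20 genes or probes were well above background in at least 5 control arrays and in 0 of 6 exposed arrays. Of these, 10 had a symbol, and there were 0 the other way round. The 20 met the detection filter in the controls, where they are brighter. The exposed arrays also had a smaller share of all probes detected (median 75.46% beside 78.32%), and the part of this in the 20 was not tested. Pmaip1, the p53-induced death gene also called Noxa, was well above background in 5 controls and in 0 exposed rats. Its control levels ran from -6.74 to -5.79 (median -6.24) and the exposed levels, which are not well above background, from -8.32 to -6.86 (median -7.64). No values overlapped, as in 38 genes or probes (0.179%) that were lower throughout. As the exposed values are only bounds, Pmaip1 was at least 1.13-fold lower (limma adjusted p = 0.996). In each of these genes the fold is the mean of the controls over the mean, per array, of the higher of the dimmest well-measured signal and the probe's own.

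The other bounded folds were likewise small. Fgf6, a growth factor of muscle, was at least 1.11-fold lower, Nup210l, a nuclear pore protein known from testis, at least 1.31-fold, Pacsin1, a neuronal endocytosis protein, at least 1.13-fold, and Jmjd4, a lysyl hydroxylase, at least 1.11-fold. The other p53 targets did not share one direction: 8 of 17 were higher, with a median of -0.02, which was 0.05 on the unscaled table. Among apoptosis regulators 22 of 29 were lower with a median of -0.06, a median that was 0.01 on the unscaled table.

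As lists, the enzymes that clear aldehydes differed by small amounts. Of 16 aldehyde dehydrogenases that passed the filter, 13 had a higher mean (median 0.10), and 1 had an unadjusted p under 0.05: Aldh9a1, which oxidises aminoaldehydes (0.19, SE 0.07). Over all genes 1.94% were higher at that threshold. Aldh2, the mitochondrial enzyme of acetaldehyde, was at -0.04, Aldh3a1, the inducible enzyme of lipid aldehydes, at 0.15 and Aldh3a2, the fatty aldehyde dehydrogenase, at 0.01. In each rat the list's median ran from -0.11 to 0.07 in the controls and from 0.04 to 0.14 at 600 ppm. Aldehyde reductases and alcohol dehydrogenases were higher for 7 of 13 (median 0.02, or -0.14 with the slide as a block), with 1, the reductase Akr7a2, under an unadjusted p of 0.05 (0.16, SE 0.07). The largest difference of that list was -0.71, for Adh7. In 600 ppm rat 7 Adh7 was at -5.99 and not well above background, and the other exposed rats lay inside the control range.

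Glutathione S-transferases were higher for 13 of 19 (median 0.05), and 2 had an unadjusted p under 0.05, both higher, beside 1.94% of all genes. With the slide as a block 8 of 19 were higher and the median was -0.003. Mgst3, a membrane-bound member, ran from 0.73 to 1.06 in the controls (median 0.93) and from 1.04 to 1.24 at 600 ppm (median 1.15). The groups barely overlapped, and the difference was 0.22 (SE 0.07, exact permutation p = 0.00433). Gstt1, the theta class enzyme, differed by 0.21 (SE 0.10). Nrf2 targets were higher for 7 of 15 with a median of -0.00 (0.06 on the unscaled table) and none under an unadjusted p of 0.05: Hmox1, haem oxygenase, was at 0.24 (SE 0.19), Nqo1, the quinone reductase, at -0.19 (SE 0.19), Srxn1, sulfiredoxin, at 0.11 (SE 0.23), and Gclc, the rate-limiting enzyme of glutathione synthesis, at -0.00 (SE 0.14). Antioxidant enzymes such as superoxide dismutases and peroxiredoxins were higher for 16 of 18 with a median of 0.07, and again none had a p under 0.05. Their median control level was 2.61, and of the 5315 brightest genes 60.3% had a higher mean.

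Oxidative phosphorylation genes leaned one way by a small amount. Of 48 that passed, 42 had a higher mean (median 0.08), and 4 had an unadjusted p under 0.05, all higher, beside 1.94% of all genes. These are bright genes (median control level 3.09), and of the 5315 brightest genes 60.3% had a higher mean. Heart muscle markers, from a tissue rich in these transcripts, had higher means as well, with none under an unadjusted p of 0.05 at 600 ppm: their medians were 1.06, 2.49 and 0.63 at 600, 1000 and 1500 ppm, where those of oxidative phosphorylation were 0.08, 0.14 and 0.07. By sex, the heart medians were 0.93 in males and 1.19 in females, and those of oxidative phosphorylation 0.03 and 0.12. On the slides with controls, which each held 1 rat at 600 ppm, the heart median was 2.26 for males and -0.45 for females. Those of oxidative phosphorylation were 0.10 and 0.09. The part of heart tissue in the oxidative phosphorylation values was not tested. Cox6b1, a subunit of cytochrome c oxidase, ran from 2.40 to 2.70 in the controls (median 2.43) and from 2.66 to 2.82 at 600 ppm (median 2.70), with a difference of 0.21 (SE 0.06, exact permutation p = 0.0238). Male controls 1 and 3 reached the exposed range and the other 4 controls lay below it. Cox5b, of the same complex, was at 0.19 (SE 0.07), Ndufc2 of complex I at 0.15 and Uqcrb of complex III at 0.12. The list's median ran from -0.08 to 0.09 in the control rats and from 0.05 to 0.14 in the exposed rats. Cytosolic ribosomal proteins, by contrast, were higher for 30 of 59 with a median of 0.00.

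Cell cycle genes were lower for 28 of 34 with a median of -0.09, which was 0.00 in males and -0.19 in females. Their median control level was -2.38. Of the 5315 genes next above the dimmest 5316, 46.9% had a higher mean. Among the 34, 1 had an unadjusted p under 0.05, the replication helicase subunit Mcm6 (-0.37, SE 0.16), beside 2.41% of all genes lower at that threshold. Genes of cholesterol and fatty acid synthesis were higher for 21 of 26 with a median of 0.09, which was 0.01 when slide entered as a block. By sex, that median was 0.13 in males and -0.02 in females.

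**Figure D3:**
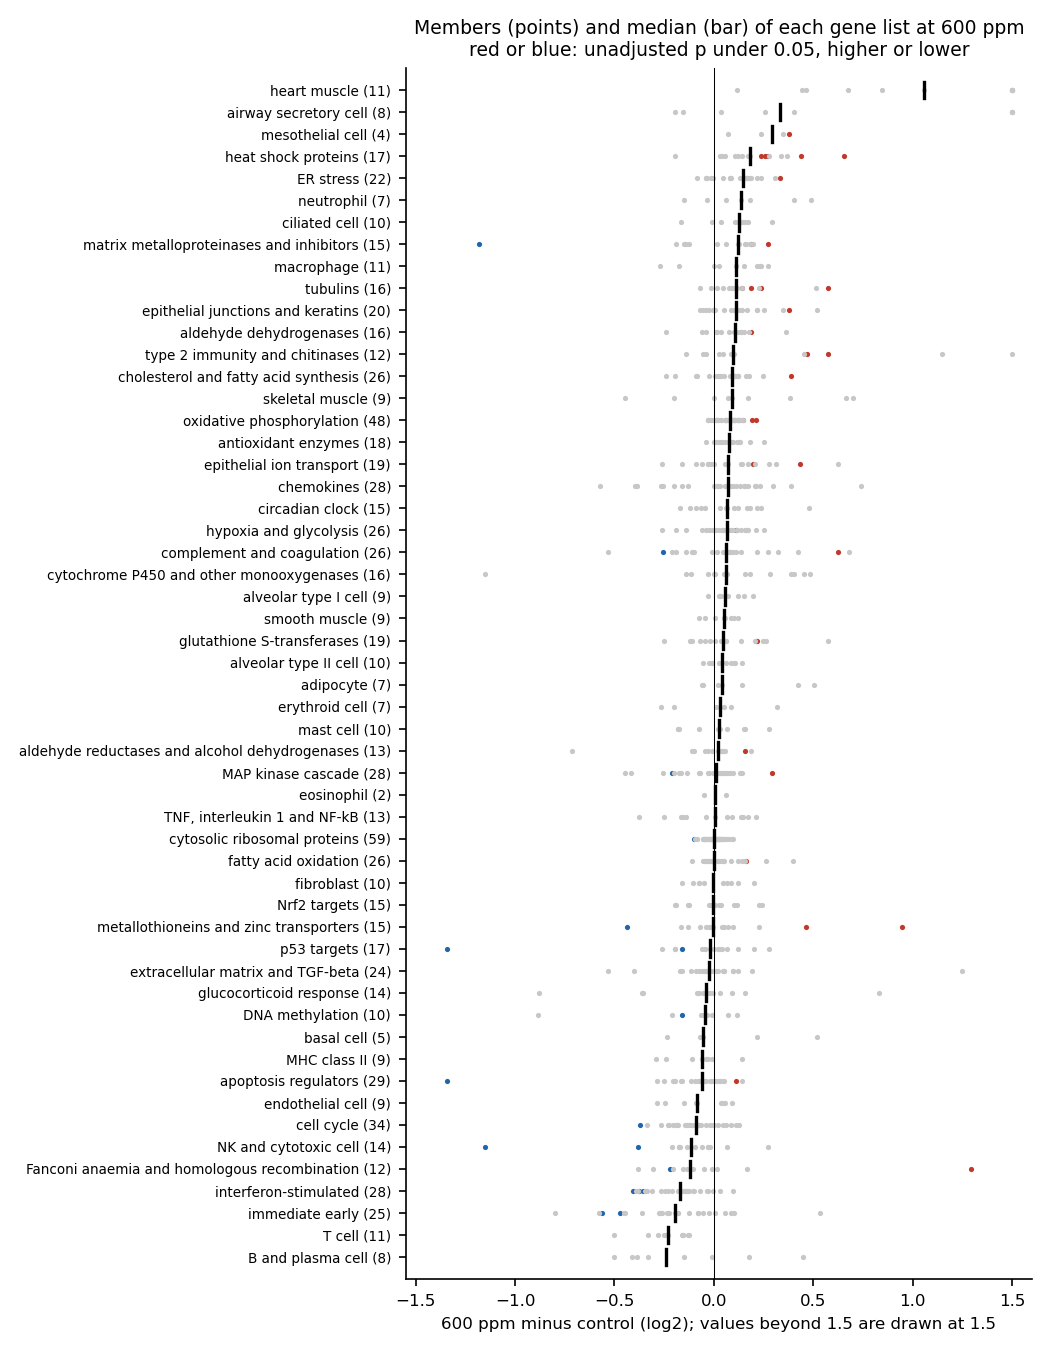
Log2 difference at 600 ppm of every member that passed the filter (points) and the median (bar) of each of the 54 gene lists, with the number of members in parentheses; red and blue points have an unadjusted p under 0.05. Heart muscle lies farthest to the right with no coloured point, heat shock proteins have 5 red points, and T cell and interferon-stimulated genes lie to the left.

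Immune lists lay on both sides: lymphocyte, MHC class II and interferon lists had medians below 0, and macrophage, neutrophil, chemokine, type 2 immunity and complement lists above it. All 11 T cell markers that passed were lower at 600 ppm, with a median of -0.23, and none had an unadjusted p under 0.05. Their median control level was -3.69. Dim genes leaned down as a whole: 43.6% of the 5316 dimmest genes had a higher mean, and 46.9% of the next 5315. The largest T cell differences were Cd3e, a chain of the T cell receptor complex, at -0.50 (SE 0.25, exact permutation p = 0.052) and the kinase Lck at -0.33 (SE 0.23). B and plasma cell markers were lower for 6 of 8 (median -0.24, median control level -2.67), with Blk, a kinase of B cell receptor signalling, at -0.33 (SE 0.18). In each rat the T cell median ran from -0.49 to 0.65 in the controls and from -0.55 to -0.02 at 600 ppm, and the exposed rats lay inside the control range except at its lower end. The T cell medians were 0.00 at 1000 ppm and 0.17 at 1500 ppm, against the same controls.

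NK and cytotoxic markers were lower for 12 of 14 (median -0.12, median control level -1.58), and 2 had an unadjusted p under 0.05, both lower, beside 2.41% of all genes. These were Ly49i5, a receptor of the Ly49 family (-1.15, SE 0.54, but -0.33 with the slide as a block), and the activating receptor Ncr1 (-0.38, SE 0.18). Ly49i5 belongs to a family of near-identical genes, and its probe may read several of them. The NK median turned above 0 in 2 of the 28 settings. MHC class II genes were lower for 8 of 9 with a median of -0.06, which was 0.01 on the unscaled table.

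Interferon-stimulated genes were lower for 26 of 28 with a median of -0.17, and 3 had an unadjusted p under 0.05, all lower, beside 2.41% of all genes. The median was -0.16 in males and -0.22 in females. On the slides with controls, which each held 1 rat at 600 ppm, it was -0.175 for males and 0.03 for females. Ifit2, which restrains viral translation, ran from -0.63 to 0.20 in the controls (median -0.38) and from -1.07 to -0.53 at 600 ppm (median -0.67), with a difference of -0.41 (SE 0.17, exact permutation p = 0.00866). The groups overlapped only between -0.63 and -0.53. Gbp5, a guanylate-binding protein of cell-autonomous defence, was at -0.38 (SE 0.16) and Oas2, a sensor of double-stranded RNA, at -0.36 (SE 0.15). Outside the list, Eif2ak2, the RNA-activated kinase PKR, was lower in every exposed rat by -0.28, whereas a second Eif2ak2 probe differed by -0.05. The list medians at the higher doses were -0.10 at 1000 ppm and -0.01 at 1500 ppm.

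Immediate early genes, which respond within minutes to stimulation and to handling of tissue, were lower for 20 of 25 with a median of -0.20. Jun ran from 3.37 to 4.65 in the controls (median 3.79) and from 2.90 to 3.92 at 600 ppm (median 3.38), with a difference of -0.47 (SE 0.20, limma p = 0.027, exact permutation p = 0.0779). Zfp36, which destabilises cytokine mRNAs, was at -0.56 (SE 0.25). For the list the male median was 0.13 and the female median -0.41, and the values at 1000 and 1500 ppm were -0.18 and -0.55.

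Macrophage markers were higher for 9 of 11 (median 0.11) and neutrophil markers for 5 of 7 (median 0.13), with S100a8 at 0.49 (SE 0.34). No member of either list had an unadjusted p under 0.05, and the neutrophil median was -0.10 under normexp background correction. Of the listed chemokines, which do not include the called Ccl12, 19 of 28 were higher (median 0.07), and none of the 28 had an unadjusted p under 0.05. The type 2 immunity list held a pair of chitinases with higher levels: Chia, the acidic chitinase secreted by lung epithelium, ran from 3.07 to 3.76 in the controls (median 3.50) and from 3.17 to 4.37 at 600 ppm (median 4.11). The difference was 0.47 (SE 0.18, limma p = 0.0177, exact permutation p = 0.0584), with female 28 and male 8 of the exposed rats inside the control range. Its paralogue Chial1 was higher by 0.57 (SE 0.19); at 1000 ppm these were 0.96 and 1.22, and at 1500 ppm 0.62 and 0.60. The sequences of paralogues are alike, so their probes may share signal.

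Markers of epithelial identity differed by small amounts. Alveolar type II markers were higher for 6 of 10 (median 0.04) and type I markers for 8 of 9 (median 0.05). Scgb1a1, the secretoglobin of club cells, ran from 6.79 to 7.23 in the controls (median 6.95) and from 6.61 to 7.02 at 600 ppm (median 6.81). Ager, the receptor that marks type I cells, ran from 4.08 to 4.87 (median 4.54) and from 4.46 to 4.86 (median 4.72).

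Secretory markers of the larger airways and markers of heart muscle varied widely between rats. Bpifa1, a secreted defence protein of the upper airways, differed by 2.83 (SE 1.95, exact permutation p = 0.145), as rats 6, 27 and 28 lay between 2.66 and 5.85 and every other rat of the 12 lay under 0. Scgb3a1, a secretoglobin of the large airways, differed by 2.08 (SE 1.27, exact permutation p = 0.134), and the same 3 rats were the highest. All 11 heart muscle genes had a higher mean (median 1.06), yet none had an unadjusted p under 0.05. Myh6, the atrial myosin, ran from -8.30 to 3.46 in the controls (median -0.71) and from -7.67 to 4.29 at 600 ppm (median 1.93). The heart list's median ran from -1.64 to 2.33 in the control rats and from -1.61 to 3.33 in the exposed rats, and its part in the muscle genes Nrap and Cryab was not tested.

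**Figure D4:**
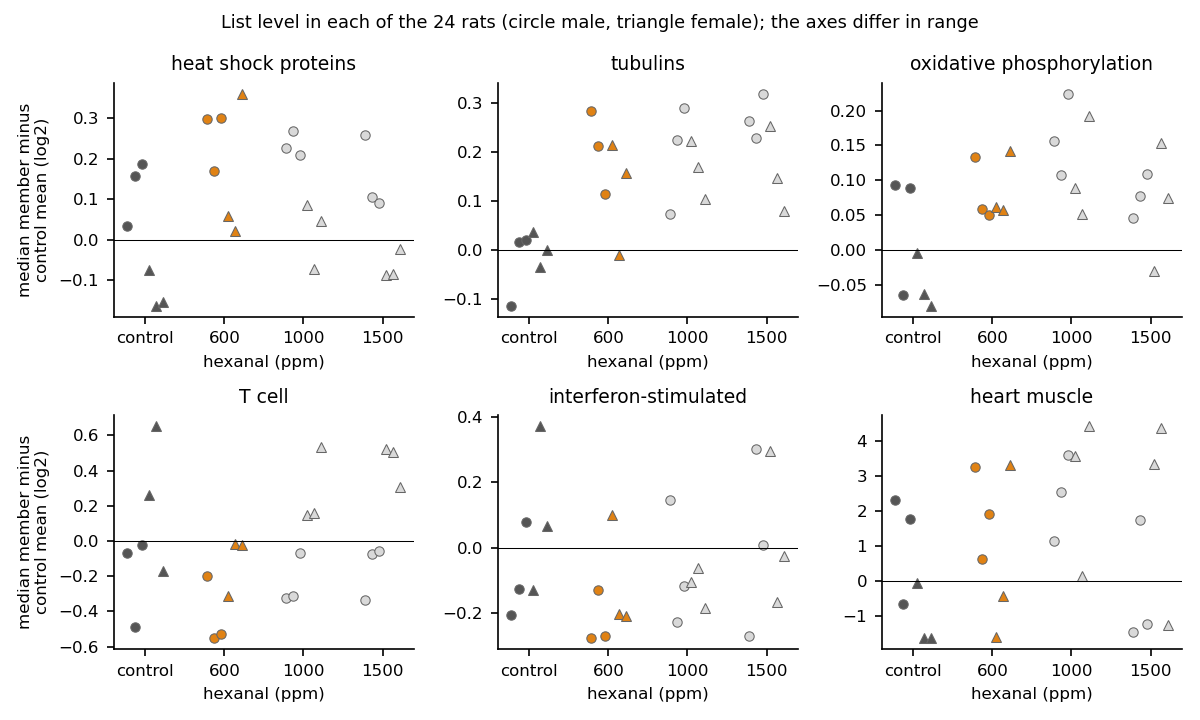
Median over the members of 6 gene lists in each of the 24 rats, as log2 minus the control mean, against the hexanal dose; circles are males and triangles females, and the axes differ in range. The T cell values at 600 ppm lie at or under -0.02, whereas the heart muscle values spread from -1.64 to 2.33 in the controls and from -1.61 to 3.33 at 600 ppm.

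Males and females were compared directly, as each group held 3 of each. No gene had a difference between the sexes in the 600 ppm effect at an adjusted p under 0.05, and 1068 genes (5.02%) had one at an unadjusted p under 0.05. For heat shock genes the median was 0.17 in males and 0.27 in females, and for tubulins 0.16 and 0.08.

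On the slides that held controls, rats 6 and 26 could be read against controls hybridised beside them. The heat shock median was 0.18 on the slide of males and 0.21 on the slide of females, and the tubulin medians were 0.24 and 0.18. For T cell markers they were -0.03 and -0.52.

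Leaving out 1 rat at a time moved several named genes back over the unadjusted p of 0.05, with the direction kept. Mmp13 did not pass without control 2, 21 or 23 (-0.98 to -1.02) or without 600 ppm rat 6, 7 or 28. Nrap did not pass without 600 ppm rat 28 (0.60), Adam7 without control 2 (0.62), and Chia without control 23 (0.39) or 600 ppm rat 26 (0.38). Lipn was at 0.48 without 600 ppm rat 7 and Ccdc77 at -0.76 without rat 26, and each also failed without other single rats. Jun, Zfp36, Ly49i5, Oas2, Gbp5, Ifit2, Mcm6, Sdf2l1, Ndufc2, Slc39a8, Ckmt1, Hsp90ab1, Cryab and Hspe1 lost the threshold in the same way, as did the lower calls Lax1, Pde6h, Cmtm2a, Nrn1, Apold1, Lrrc17 and Ccdc152. Tubb4b, Hspb1 and Hsph1 passed it without any 1 rat, at 0.49 to 0.62, 0.37 to 0.48 and 0.58 to 0.75.

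The 600 ppm rats were also set against the higher doses without the shared controls. Against 1000 ppm, 695 genes (3.27%) differed at an unadjusted p under 0.05 and 0 at an adjusted p. Against 1500 ppm, 1778 genes (8.36%) differed at an unadjusted and 3 (0.0141%) at an adjusted p under 0.05. No slide held rats of both 600 and 1500 ppm, so dose and slide cannot be told apart in this comparison. The only 1 of those 3 with a symbol was Cyp2b2, a cytochrome P450 known for its induction by phenobarbital. It ran from 3.78 to 4.08 at 600 ppm (median 3.93) and from 3.06 to 3.51 at 1500 ppm (median 3.33), so the groups did not overlap, and the difference was 0.61 (SE 0.10, limma adjusted p = 0.0495). Against the 6 shared controls it was 0.27 at 600 ppm, 0.10 at 1000 ppm and -0.35 at 1500 ppm. The count of 3 was 75 with sex as a covariate and 5 with every probe counted. It was 0 in most other settings, including the scaling by quantiles and leaving out 10 of the 12 control and 600 ppm rats one at a time. Leaving out each 1500 ppm rat in turn also gave 0, except for 4 without rat 17.

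By dose, the heat shock list had medians of 0.18 at 600 ppm, 0.09 at 1000 ppm and 0.02 at 1500 ppm, and the tubulin list 0.11, 0.14 and 0.17, each against the same 6 controls. Hspb1 was at 0.44, 0.22 and 0.18, and Hsph1 at 0.65, 0.47 and -0.02. Tested directly, Hsph1 differed by 0.67 between 600 and 1500 ppm (SE 0.20, limma adjusted p = 0.363) and Hspb1 by 0.26 (SE 0.11, limma adjusted p = 0.546). Tubb4b was lower at 600 than at 1000 ppm by -0.42 and than at 1500 ppm by -0.37 (SE 0.10, limma adjusted p = 0.256). None of these direct differences passed the adjusted threshold. Those between 600 and 1500 ppm cannot be told apart from the slide, as no slide held both doses.

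**Figure D5:**
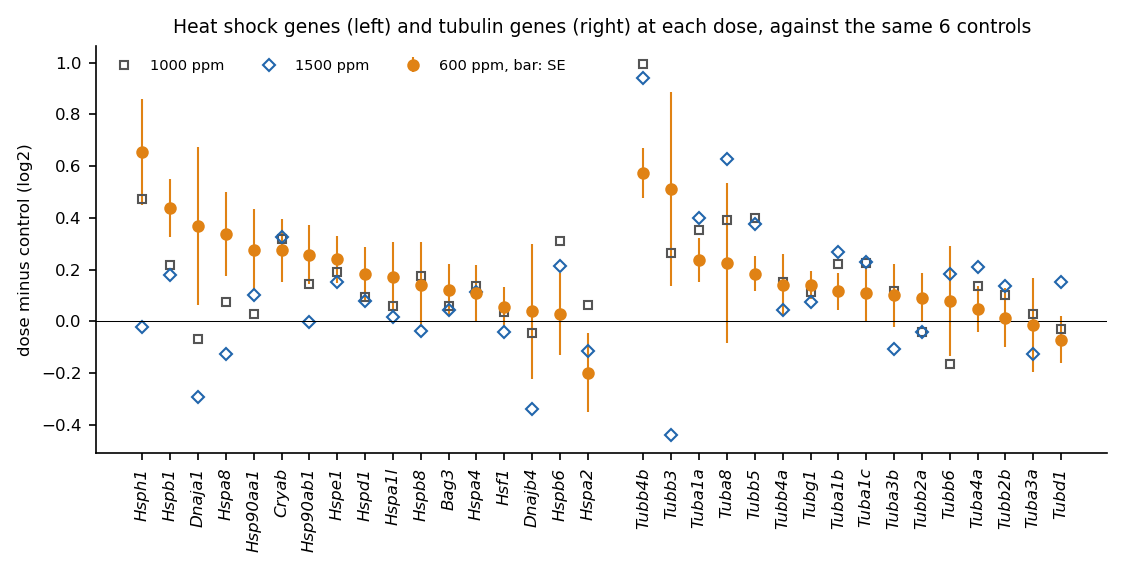
Log2 difference from the same 6 control rats at 600 ppm (orange, with SE), 1000 ppm (squares) and 1500 ppm (diamonds) for the heat shock genes on the left and the tubulin genes on the right, each in falling order at 600 ppm. Hsph1 lies at 0.65, 0.47 and -0.02 at the rising doses, and Tubb4b at 0.57, 0.99 and 0.94.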

How the data were processed

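Lung RNA of 24 rats (6 per group) was read on 1-colour Agilent rat arrays. The authors' scanner files, deposited per array, hold the intensity of each spot from Feature Extraction 11.5.1.1, whose processed signal is background-subtracted but not scaled between arrays; the deposited series-wide values are the same processed intensity. No scaling by the authors was used. Each array was scaled here by subtracting the log2 of its 75th percentile over non-control probes. Probes detected (well above background) on 5 or more of the 6 arrays in some group were kept, each gene taking its brightest probe. Symbols came from RefSeq accessions for 18355 of 30367 probes (60.4%), and the rest are unnamed here. No aligner or genome build applies to these values.

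The comparison of 600 ppm with control was fitted on all 24 arrays in limma 3.58.1 (R 4.3.3, the data.table package, 1.17.8), without covariates, with Benjamini-Hochberg adjustment over all 21261 genes. Calls used the thresholds of the study's methods, 1.5-fold and p 0.05 without adjustment. Where an SE is printed with no p, the limma p is left out. For many of these genes, being called or the counts given for the list tell whether it was under 0.05. Zfp36, Slc39a8, Slc39a14 and Timp1, whose lists have no such counts here, also had an unadjusted limma p under 0.05. Exact two-sided permutation tests of 6 rats against 6 were used for single genes; their p-values are not adjusted and belong to genes selected on the same values. The members and gene lists were chosen with earlier results of these data known, so a list is described by its counts and median and has no test. The named genes were the 12 largest called differences in each direction that were detected on 5 or more arrays in both groups and alike in both sexes, the 10 smallest p-values, called list members (or the 2 largest differences of a list without any), and the 5 largest bounded folds. List members given beside their counts, members of the non-overlapping set, Eif2ak2, Scnn1a, Cyp2b2, Hmox1 and the other genes outside this rule were chosen after their values were seen. 3 genes that the rule chose are not reported here. All arrays were scanned on 1 day, on 6 slides of 4 arrays. Precision is limited by the number of arrays; the median standard error of a log2 difference was 0.133. Also tried were normexp background correction (offset 50, median spot signal), scaling by quantiles or medians, the deposited values unscaled, other filters and probe rules, sex, slide and array weights, the methods' t-test, and leaving out each rat.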

Additional observations from a re-analysis of the deposited data

Results flagged for a closer look

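A highest or lowest rat that stood apart from the other 5 of its group was looked for in 148 groups over 73 named genes and the share of detected probes, and 8 were found; chance alone gives about 1 in 20. In the 600 ppm group, Ddhd2 in rat 26 was at -4.23, with the others at -3.73 to -3.49. Hspb9 in rat 6 was at -3.14, with the others at -4.90 to -4.40. Rat 26 had Ly49i5 at -3.85 where the others had -6.61 to -5.80. Rat 7 had Steap1 at -5.83 where the others had -5.01 to -4.65.

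In the controls, rat 1 had Cilp2 at -2.94 (others -5.13 to -4.51) and rat 22 had Gbp5 at 0.35 (others -0.28 to -0.12). Rat 3 had Lax1 at -5.01 (others -3.59 to -2.90). Rpl39l1, a ribosomal protein paralogue picked after its values were seen, was at -6.17 in rat 23 and at -9.14 to -8.63 in the other controls. Those other values were not well above background, so rat 23 was the only control in which it was detected. Rats 6 and 26 of the 600 ppm group lie on the slides of the controls; the part of the slide in these values was not tested.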

How the results depend on the processing

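The 36 higher calls became 11 with normexp, 76 on the deposited table, 379 without a filter on dim probes, 22 with detection on all 24 arrays (22 also on the 12 of this comparison, chosen after seeing the data), 57 with sex, 122 with slide as a fixed block and 72 with array weights. Leaving out 1 rat gave 34 to 81: 81 without 600 ppm rat 6, 57 without rat 7, 55 without control 22 and 68 without control 23. The 93 lower calls became 30 with normexp, 204 without a filter, 28 in both detection rules and 258 with array weights, and 75 to 150 without 1 rat (150 without control 3, 141 without 600 ppm rat 26). Genes at an unadjusted p under 0.05 numbered 924, and 549 on the table, 2097 without a filter, 1463 with sex, 2107 with array weights. At an adjusted p under 0.05 there were 0, with 1 under normexp (Tubb4b, 0.71) and 2 with slide as a fixed block (Rpl39l1 and 1 unnamed probe). Among the controls, Rpl39l1 was well above background in rat 23 alone, so it passed the filter only in exposed groups. Its block value sets rats 6 and 26 against control values that are mostly not well above background. The methods' t-test gave 24 higher and 63 lower calls, 1142 genes under its threshold and 0 after adjustment. The sex difference had 0 genes, 18 with slide as a fixed block and 0 to 2 without 1 rat. The 3 genes that differed between 600 and 1500 ppm (settings chosen after seeing the data) became 75 with sex, 5 with every probe, 1 after median scaling, 0 to 4 without 1 rat (4 without 600 ppm rat 27 or 1500 ppm rat 17, 1 without control 22, otherwise 0), and 0 with normexp, quantile scaling, the deposited table, no filter, either stricter detection rule, slide as either block, or array weights. Lipn reversed to -0.17 with slide as a fixed block. Tubb4b, Hspb1, Hsph1, Scnn1a, Endou, Rgma, Plekhb2, Rasd1 and Ddhd2 kept direction and an unadjusted p under 0.05 in all settings. No paired analysis was possible because the rat numbers are not shared between the groups.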

Other observations

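Gp2, a receptor for bacteria on the microfold cells of mucosal epithelium, was picked after its values were seen. It was well above background in 2 of 6 controls (rat 1 at -2.09 and rat 22 at -3.77, with the other 4 between -9.25 and -8.90) and in all 6 rats at 600 ppm (-5.14 to 0.35, median -3.59). Its median was -2.30 at 1000 ppm and -4.13 at 1500 ppm, each with 5 of 6 arrays above background. As most control values are not well above background, no difference is given. The highest exposed rats were 6 and 28, which are also among the highest for Bpifa1, Scgb3a1 and Myh6.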
